A study of Mus musculus with 4 samples.

Results

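The Zfy-high set comprised 583 cell barcodes of 1 mouse testis library, selected on measured values: the summed level of the Y-linked genes Zfy1 and Zfy2 was at least 600 CPM in the barcode (CPM, the counts of a gene scaled to a total of 1000000 UMIs), Sycp1 was at least 1000 CPM and Meig1 was under 1200 CPM. A UMI, or unique molecular identifier, marks 1 captured RNA molecule. The barcodes were 583 of 8121 that passed the filters of at least 1000 UMIs, at least 500 genes and at most 10% mitochondrial UMIs, a share of 7.18% (95% Clopper-Pearson interval 6.63% to 7.76%). They were 16.6% of the 3514 barcodes with Sycp1 at or above 1000 CPM. The other 2931 of those served as the comparator and were also divided into 2378 barcodes with Zfy1 and Zfy2 under 600 CPM and Meig1 under 1200 CPM (Zfy-low, Meig1-low) and 553 barcodes with Meig1 at 1200 CPM or more (Meig1-high), of which 26 also reached 600 CPM of Zfy1 and Zfy2.

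Testis cells had been profiled with a droplet 3' kit in 4 libraries, 1 from control and 1 from Znhit1 knockout mice at each of postnatal days 16 and 35. All values here come from the knockout library of day 35, whose 15306 deposited barcodes held 72459160 UMIs. Since the remaining 3 libraries were not analysed here, no value compares genotypes or ages. The sources used here do not give the driver of the deletion, the number of animals or the strain. With 1 library no test was made, and every 95% interval covers counting error only. Znhit1 itself, which encodes a subunit of the SRCAP complex, which loads H2A.Z onto nucleosomes, was at 3.04 CPM in the Zfy-high set (11 UMIs), 2.93 CPM in the Zfy-low, Meig1-low barcodes and 2.31 CPM in the Meig1-high barcodes. These levels do not check the genotype label, since a 3' count need not fall in the deleted part and no control level is given.

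In the first meiotic prophase the chromosomes break their DNA, search for their homologues and join along a protein axis, the synaptonemal complex. In zygotene this joining is under way and in pachytene it is complete on the autosomes. The X and the Y chromosome stay largely unpaired and are then transcriptionally silenced within the sex body, a process named meiotic sex chromosome inactivation, which rests on DNA damage signalling. Zfy1 and Zfy2 encode zinc finger transcription factors of the Y short arm, known from work in mice to harm spermatocytes when they stay active in pachytene. Sycp1 encodes the transverse filament of the synaptonemal complex, and Meig1 a protein that spermatocytes make from pachytene on and spermatids need for the sperm tail.

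The 150 bases before the annotated starts of Zfy1, Zfy2 and Usp9y are given because the first pair chose the barcodes and Usp9y, which did not, was the other Y-linked gene with a ratio above 2 against both comparators. They are from RefSeq on GRCm38.p6, on the minus strand, written 5′ to 3′, and run to the base before the start. Zfy1 lies at chrY:797410-797559, Zfy2 at chrY:2170410-2170559 and Usp9y at chrY:1459783-1459932. Capitals mark matches to GGNGTGGC on either strand, a string picked after the windows had been read.
Zfy1: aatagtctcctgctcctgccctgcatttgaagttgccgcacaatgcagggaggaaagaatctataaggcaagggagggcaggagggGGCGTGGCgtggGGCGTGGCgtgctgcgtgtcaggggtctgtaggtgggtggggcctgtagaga
Zfy2: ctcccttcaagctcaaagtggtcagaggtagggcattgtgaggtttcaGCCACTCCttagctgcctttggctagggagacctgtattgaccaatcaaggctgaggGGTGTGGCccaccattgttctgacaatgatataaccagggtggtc
Usp9y: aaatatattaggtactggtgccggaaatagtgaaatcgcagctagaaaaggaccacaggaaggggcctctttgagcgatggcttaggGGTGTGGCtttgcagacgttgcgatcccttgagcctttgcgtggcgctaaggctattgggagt
The string occurred 2 times in the Zfy1 window, 2 times in that of Zfy2 and 1 time in that of Usp9y, and in 6.47% of 32851 promoter windows of the same length. CCAAT, searched on both strands, occurred 1 time in the Zfy2 window and 1 time in the Usp9y window but not in that of Zfy1, against 24.5% of all windows. None of the 3 windows held GGGCGG (28.6% of all windows), TATAAA (7.57%) or AACNGTT (2.31%). The Zfy1 window had 60.7% G and C, against 52.0% for Zfy2 and 51.3% for Usp9y. By gapped alignment, Zfy1 and Zfy2 were identical at 46.6% of aligned columns, Zfy1 and Usp9y at 56.5%, and Zfy2 and Usp9y at 48.9%. These matches describe letters and say nothing of a factor bound there.

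Within the Zfy-high set, Zfy1 and Zfy2 together gave 1 to 36 UMIs per barcode, with a median of 7. Their summed level ran from 604 to 3453 CPM with a median of 1134 CPM. Both genes were counted in 526 barcodes (90.2%), only Zfy1 in 20 and only Zfy2 in 37. Membership rested on 1 or 2 UMIs in 29 barcodes. The 67 barcodes just inside the limit, from 600 to under 700 CPM, had a median of 3 UMIs of the pair and an X-linked share of 2.30%. The 71 barcodes just outside, from 500 to under 600 CPM, also had a median of 3 UMIs and an X-linked share of 2.16%. At the Meig1 limit, the 16 members from 1000 CPM up had an X-linked share of 1.83%, and the 10 Zfy-high barcodes from 1200 to under 1400 CPM, outside it, had 1.26%.

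Since the pair is used together in the gate, each gene was also read in barcodes chosen on the other alone. With a limit of 300 CPM of Zfy1 in place of the sum, 529 barcodes were chosen and Zfy2 stood at 594 CPM in them, against 77.8 CPM in the Zfy1-low, Meig1-low barcodes (7.63-fold, 95% interval 7.07 to 8.23) and 54.9 CPM in the Meig1-high barcodes (10.8-fold, 9.71 to 12.1). With the limit on Zfy2, 591 barcodes were chosen and Zfy1 stood at 510.0 CPM, against 56.8 CPM (8.98-fold, 8.24 to 9.80) and 30.6 CPM (16.7-fold, 14.5 to 19.2). The 2 genes are close copies, and the handling of reads that match both is not stated in those sources, so these ratios are uncertain.

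Markers of the stages of meiosis were compared with the label of zygotene to pachytene transition. The autosomal markers of stages before or at the start of prophase were 7 genes. They were Stra8, the inducer of meiotic entry, the histone methyltransferase Prdm9, which marks break sites, Ccnd2, Dmrt1, Kit, Crabp1 and Uchl1. All 7 were at least 2-fold lower in the Zfy-high set than in the Zfy-low, Meig1-low barcodes (median log2 ratio -2.55). Their summed level was 120.2 CPM in the Zfy-high set, 687 CPM in the Zfy-low, Meig1-low barcodes and 102 CPM in the Meig1-high barcodes. The 9 markers of leptotene and zygotene summed to 7657 CPM, against 5946 and 5914 CPM, with Sycp3 alone at 3351 CPM of the set's sum. Against the Zfy-low, Meig1-low barcodes 2 of the 9 were at least 2-fold higher, Hormad1 and Meiob, and 2 were lower, Tex15 (0.288) and Mei4 (0.132). Of all autosomal genes, 5.54% were higher and 16.8% lower in that contrast, which also holds the 7 markers above. The 10 pachytene markers other than Meig1 summed to 1219 CPM, against 787 and 6057 CPM. Of them, 8 were at least 2-fold lower than in the Meig1-high barcodes, against 15.5% of all autosomal genes. The given markers other than the gate genes were Rexo5, which encodes an RNA exonuclease, and Rad51ap2, which encodes a recombination protein of meiosis. Rexo5 was at 668 CPM in the Zfy-high set, 206 CPM in the Zfy-low, Meig1-low barcodes and 336 CPM in the Meig1-high barcodes, ratios of 3.24 (3.07 to 3.43) and 1.99 (1.88 to 2.10). Rad51ap2 was at 530.2, 197 and 358 CPM in the same order, ratios of 2.69 (2.53 to 2.85) and 1.48 (1.40 to 1.57). When only barcodes of 3000 to 10000 UMIs were taken on both sides, a choice made after seeing the data, the ratios to the Meig1-high barcodes were 1.15 for Rexo5 and 0.892 for Rad51ap2. The levels are those of cells past the start of prophase and short of the pachytene markers, as the label has it, although the leptotene and zygotene markers went both ways and the low Meig1 was set by the gate.

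The X chromosome was still represented in these barcodes. X-linked genes gave 2.55% of all UMIs in the Zfy-high set, 2.31% in the Zfy-low, Meig1-low barcodes and 0.745% in the Meig1-high barcodes. The share was 3.43 times that of the Meig1-high barcodes (3.39 to 3.47) and 1.11 times that of the Zfy-low, Meig1-low barcodes (1.10 to 1.11). Per barcode it ran from 0.627% to 4.02% with a median of 2.68%, and 510 of 583 members (87.5%) were at 2% or more. Only 6 members were under 1%, against 401 of 553 Meig1-high barcodes. The Zfy-low, Meig1-low barcodes had a median of 2.44%, with 109 of 2378 under 1%. The ranges of the 3 sets overlapped, and the Zfy-high set lay mostly on the high side.

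**Figure D1:**
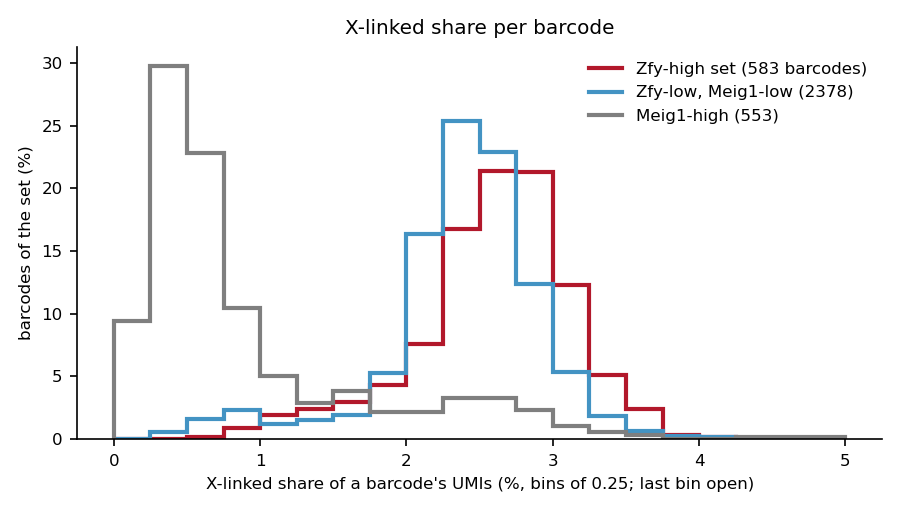
Share of each barcode's UMIs from X-linked genes (x axis, %, bins of 0.25), as the percentage of the barcodes of each set (y axis), for the Zfy-high set, the Zfy-low, Meig1-low barcodes and the Meig1-high barcodes. The Zfy-high set peaks around its median of 2.68%, close to the Zfy-low, Meig1-low barcodes, and the Meig1-high barcodes peak under 1%.

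Among 518 genes of the X chromosome that reached 20 UMIs in the 2 sets together, 393 were at least 2-fold higher in the Zfy-high set than in the Meig1-high barcodes and 24 were at least 2-fold lower (median log2 ratio 1.84). These were 75.9% and 4.63% of X-linked genes, against 17.9% and 15.5% of autosomal genes, whose median was 0.25. Against the Zfy-low, Meig1-low barcodes, 86 of 581 were at least 2-fold higher and 79 lower, with a median log2 ratio of -0.01. These were 14.8% and 13.6% of X-linked genes, against 5.54% higher and 16.8% lower among autosomal genes, so the lower share was under the autosomal one. Scml2, which encodes a Polycomb protein of the sex body, was counted in 552 of 583 members (94.7%), with a median of 878 CPM per barcode and a highest value of 3558 CPM. Its level over summed UMIs was 954 CPM, against 383 CPM in the Zfy-low, Meig1-low barcodes (2.49-fold, 2.38 to 2.60) and 149.8 CPM in the Meig1-high barcodes (6.37-fold, 5.95 to 6.82). Fmr1, the fragile X gene for an RNA-binding protein, was at 682, 426 and 77.6 CPM in the same order (1.60-fold and 8.79-fold). Taf7l, a germ-cell subunit of the basal transcription machinery, was at 618, 554 and 119.5 CPM (1.12-fold and 5.17-fold).

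Further X-linked genes were picked after their values were seen. Ccnb3, which encodes cyclin B3, was at 419 CPM in the Zfy-high set, 129 CPM in the Zfy-low, Meig1-low barcodes and 16.7 CPM in the Meig1-high barcodes, ratios of 3.24 (3.02 to 3.48) and 25.1 (20.8 to 30.4). Pet2 was at 587, 171 and 50.8 CPM, and the ubiquitin protease gene Usp26 at 595, 288 and 36.2 CPM. Ube2a, which encodes a ubiquitin-conjugating enzyme, was at 189, 47.8 and 37.7 CPM, 3.95-fold and 5.02-fold higher in the Zfy-high set. Cfap47, a gene for a protein of the sperm tail, was at 106, 13.9 and 43.4 CPM (7.62-fold and 2.44-fold). These genes were highest in the Zfy-high set, which the median X-linked gene was not. The reverse was seen for Slxl1, a germ-cell gene, at 26.2, 26.5 and 478 CPM, and for Tsga8, at 15.5, 37.8 and 286 CPM, which were 18.2 and 18.5 times lower in the Zfy-high set than in the Meig1-high barcodes.

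Y-linked genes without Zfy1 and Zfy2 gave 0.104% of UMIs in the Zfy-high set, 0.0712% in the Zfy-low, Meig1-low barcodes and 0.0199% in the Meig1-high barcodes, ratios of 1.46 (1.41 to 1.52) and 5.24 (4.93 to 5.57). All 7 measured against the Meig1-high barcodes were at least 2-fold higher, against 75.9% of X-linked and 17.9% of autosomal genes. Usp9y, which encodes a ubiquitin protease and lies at chrY:1298961-1459782 on the minus strand, was counted in 401 members (68.8%), with a median of 208 CPM per barcode. Its level was 259 CPM, against 66.7 CPM in the Zfy-low, Meig1-low barcodes (3.88-fold, 3.54 to 4.27) and 33.4 CPM in the Meig1-high barcodes (7.75-fold, 6.73 to 8.95). It was the only one of 8 at least 2-fold higher than in the Zfy-low, Meig1-low barcodes. Eif2s3y, a gene for a subunit of translation initiation factor 2, was at 210.0, 177 and 42.0 CPM in the same order, and Uty, a gene of the lysine demethylase family, was at 64.4, 38.0 and 8.70 CPM. Gm47283, a predicted gene near the distal end of the Y (chrY:90784738-90816464), was at 317, 271 and 69.5 CPM. It had the highest level of these Y-linked genes in the set and is a large part of the Y-linked shares above. Gm47283 was counted as Y-linked by its annotated position alone. Whether it lies in the part of the Y that is shared with the X was not tested, so the shares and counts above need not be those of Y-specific genes.

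The short-arm genes have partners on the X, which allowed each pair to be set side by side. Zfx, the X-linked partner of Zfy1 and Zfy2, was at 81.2 CPM in the Zfy-high set and 83.5 CPM in the Zfy-low, Meig1-low barcodes, a ratio of 0.972 (0.852 to 1.11), where the gate genes Zfy1 and Zfy2 had ratios of 14.1 and 15.6. Usp9x, the partner of Usp9y, was at 323, 201 and 39.6 CPM over the 3 sets, ratios of 1.61 and 8.17 (7.18 to 9.32). Kdm6a, the partner of Uty, had a ratio of 0.635 (0.549 to 0.733) against the Zfy-low, Meig1-low barcodes, where Uty had 1.70 (1.45 to 1.99). Ddx3x, which encodes an RNA helicase, had 2.31 (1.92 to 2.78) against 1.36 (1.17 to 1.57) for Ddx3y, so in this pair the X-linked copy was the one further above 1. Uba1, for the ubiquitin-activating enzyme, had 0.428 (0.337 to 0.537) against 1.13 (1.01 to 1.27) for Uba1y. All 7 X-linked partners were above 2-fold against the Meig1-high barcodes, from 2.31-fold for Uba1 to 12.1-fold for Kdm6a. Of all X-linked genes, 75.9% were at least 2-fold higher in that contrast. Reads shared by partners could be split between them. The X-linked partners were chosen after values were seen.

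**Figure D2:**
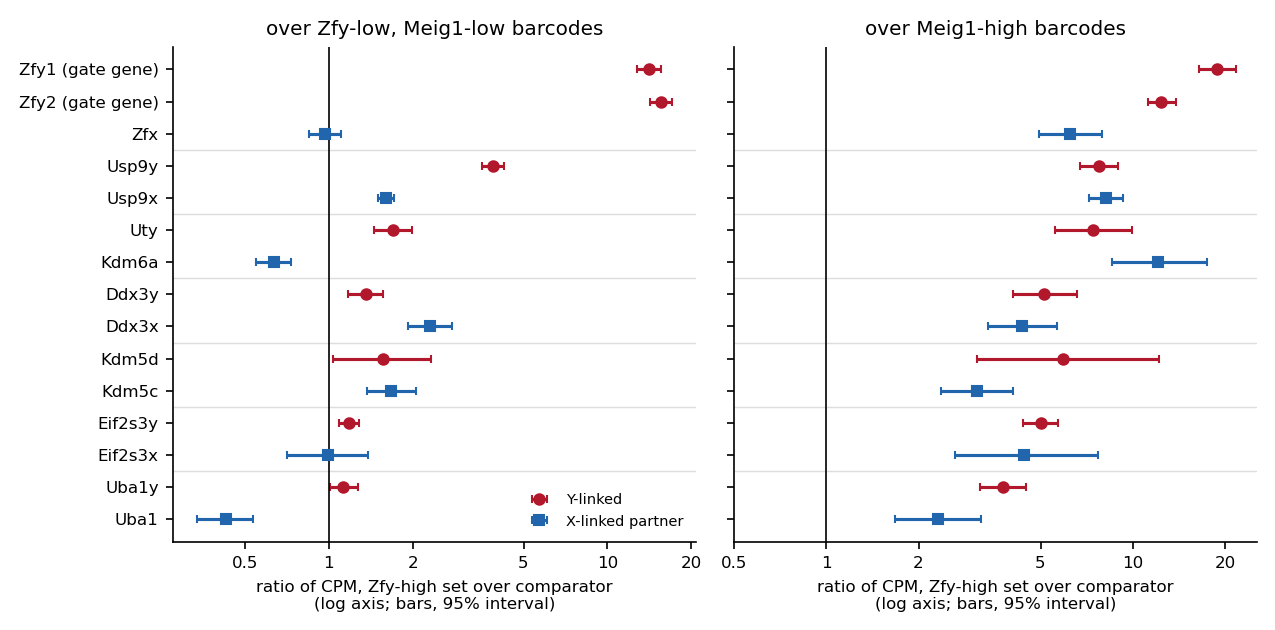
Ratio of CPM in the Zfy-high set over the Zfy-low, Meig1-low barcodes (left) and over the Meig1-high barcodes (right), on log axes, for Y-linked genes (red circles) and their X-linked partners (blue squares), with 95% counting intervals as bars. Zfy1 and Zfy2, which the gate used, stand above 10, Usp9y is at 3.88 on the left, and every gene is above 2 on the right.

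Across autosomal genes other than the gate genes, with at least 20 UMIs over both sets, 494 of 15149 were at least 2-fold higher in the Zfy-high set than in the other Sycp1-high barcodes (3.26%) and 2487 were at least 2-fold lower (16.4%). Against the Zfy-low, Meig1-low barcodes, 781 of 14105 were higher (5.54%) and 2367 lower (16.8%). Against the Meig1-high barcodes, 2269 of 12679 were higher (17.9%) and 1961 lower (15.5%). The median log2 ratios of all genes were -0.13, -0.16 and 0.25. Of 12210 genes measured against both sides, 7061 were within 2-fold of both. Another 319 were at least 2-fold lower than in the Zfy-low, Meig1-low barcodes and at least 2-fold higher than in the Meig1-high barcodes, and 100 had the opposite slope. The count of genes at least 2-fold higher than in both was 186, of which 118 were protein-coding, and 280 were at least 2-fold lower than in both. The Zfy-low, Meig1-low barcodes are mixed. Of them, 987 had under 500 CPM of the 8 markers before or at the start of prophase and at least 1% X-linked UMIs. This limit was chosen after seeing the data. The genes had been picked against barcodes that include these 987, so their direction was largely fixed beforehand. Against the 987, all 186 had a ratio above 1 and 91 were still at least 2-fold higher. Of the 280, 269 had a ratio below 1 and 172 were still at least 2-fold lower.

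The 6 autosomal genes whose pattern was most like that of Zfy1 and Zfy2, by the smaller of the 2 lower interval bounds of the ratio against both sides, were Gm50299, A830018L16Rik, Srgap1, Resf1, Tafa1 and Thap8. The likeness had a limit. In the 109 Zfy-low, Meig1-low barcodes with under 1% X-linked UMIs, A830018L16Rik, Srgap1, Resf1 and Tafa1 were within 2-fold of the set, although Zfy1 and Zfy2 were low there by the gate. A830018L16Rik, at chr1:11414105-11975901, was at 472 CPM in the Zfy-high set, 76.4 CPM in the Zfy-low, Meig1-low barcodes and 55.3 CPM in the Meig1-high barcodes, ratios of 6.18 (5.71 to 6.69) and 8.53 (7.66 to 9.53). It was counted in 364 of 583 members (62.4%), from 0 to 5891 CPM with a median of 218 CPM, so it was far from even among them. Gm50299, at chr19:23745502-23748001, was at 126, 16.4 and 3.26 CPM, ratios of 7.69 (6.52 to 9.09) and 38.5 (25.6 to 60.8), and was counted in 248 members (42.5%). Srgap1, for a GTPase-activating protein, was at 161, 31.5 and 17.4 CPM (5.12-fold and 9.26-fold). Resf1, for a retroelement silencing factor, was at 254, 72.5 and 70.3 CPM (3.50-fold and 3.61-fold). Tafa1, for a secreted chemokine-like protein, was at 225, 66.7 and 67.4 CPM (3.37-fold and 3.33-fold), with 174 members (29.8%) counting it. Thap8, for a zinc finger protein, was at 32.9, 9.87 and 8.02 CPM (3.33-fold and 4.10-fold). With 3000 to 10000 UMIs on both sides the ratios to the Meig1-high barcodes were 5.10 for A830018L16Rik, 3.97 for Srgap1, 1.71 for Resf1 and 1.29 for Tafa1. In Leydig barcodes, which should lack germ-cell RNA, A830018L16Rik was at 4.06 CPM and Tafa1 at 2.46 CPM, while Resf1 was at 44.8 CPM.

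Brdt, Meiob and Atr, each named as the gene of its list with the largest ratio to the other Sycp1-high barcodes, were above both sides. Brdt, the testis bromodomain gene, was at 733 CPM in the Zfy-high set, 220.5 CPM in the Zfy-low, Meig1-low barcodes and 486 CPM in the Meig1-high barcodes, ratios of 3.32 (3.15 to 3.51) and 1.51 (1.43 to 1.58). It was counted in 521 members (89.4%), with a median of 651 CPM and a highest value of 2562 CPM. Meiob, for a single-strand DNA-binding factor of recombination, was at 407, 161 and 226 CPM (2.53-fold and 1.80-fold). Atr, for the kinase that spreads the silencing signal along the sex chromosomes, was at 813, 556 and 486 CPM (1.46-fold and 1.67-fold). Against the 987 Zfy-low barcodes with few markers before or at the start of prophase its ratio was 1.13, and that of Meiob 1.59.

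**Figure D3:**
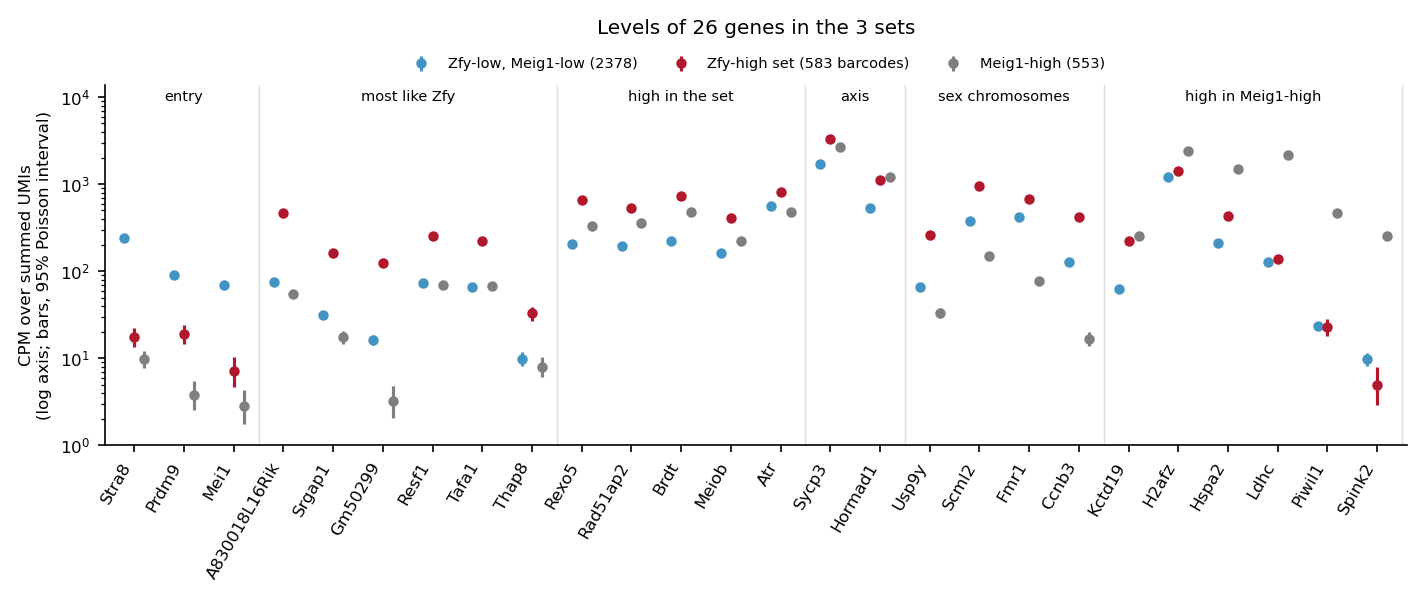
Level in CPM over summed UMIs (log axis) of 26 genes in the Zfy-low, Meig1-low barcodes (blue), the Zfy-high set (red) and the Meig1-high barcodes (grey), with 95% Poisson intervals as bars, many of them smaller than the points. Stra8, Prdm9 and Mei1 are highest in blue, A830018L16Rik to Ccnb3 except Hormad1 are highest in red, and the last 6, from Kctd19 to Spink2, are highest in grey.

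Among the 186 genes at least 2-fold higher than on both sides, those of high level included Elavl3, an RNA-binding protein gene known from neurons, at 285 CPM in the Zfy-high set against 98.2 and 129.8 CPM. Zdbf2, an imprinted gene, was at 283, 139 and 76.7 CPM, Wdr26 at 298, 145 and 139 CPM, and Igf2bp3, for an RNA-binding protein of growth and development, at 146, 50.7 and 69.7 CPM. Among the 280 genes lower than on both sides, Tuba3a, an alpha-tubulin gene of the testis, was at 117 CPM against 354 and 927 CPM. Dut, for the enzyme that removes dUTP, was at 84.8, 243 and 641 CPM, and Mt2, a metallothionein gene, was at 75.7, 274 and 268 CPM. Psmc3, a proteasome subunit gene, was at 110.0, 222 and 257 CPM. Against the 987 Zfy-low barcodes with few markers before or at the start of prophase the ratios of Tuba3a and Dut were 0.612 and 0.746, within 2-fold. These genes were named for their level after the values were seen.

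Of 13 genes for the formation of DNA double-strand breaks, 7 were at least 2-fold lower in the Zfy-high set than in the Zfy-low, Meig1-low barcodes and 1 was higher (median log2 ratio -1.04, against -0.16 for all autosomal genes, of which 5.54% were higher and 16.8% lower). Against the Meig1-high barcodes 7 of 13 were higher and 0 lower (median 1.08, against 0.25 for all, of which 17.9% were higher and 15.5% lower). Mei1, needed for break formation, was at 7.18 CPM, against 69.6 CPM in the Zfy-low, Meig1-low barcodes, 9.69 times lower, and 2.85 CPM in the Meig1-high barcodes. Prdm9 was at 19.1, 90.8 and 3.81 CPM and Mei4, of the break machinery, at 6.63, 50.1 and 1.09 CPM. Zcwpw1, which reads the PRDM9 mark, was at 175, 476 and 41.2 CPM. The break enzyme gene Spo11 went the other way, at 143 CPM against 84.8 CPM (1.69-fold, 1.51 to 1.87) and 99.4 CPM (1.44-fold, 1.28 to 1.61). Its ratio to the 987 Zfy-low barcodes with few markers before or at the start of prophase was, however, 0.960. Hormad1, for a protein of unsynapsed axes, was at 1117, 533 and 1203 CPM, the 1 gene of the list that was at least 2-fold higher than in the Zfy-low, Meig1-low barcodes.

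Of 21 genes for strand exchange, 3 were at least 2-fold higher than in the Zfy-low, Meig1-low barcodes, namely Rad51ap2, Meiob and Mnd1, and 4 were lower, among them Brca1, Rpa1 and Tex15. All autosomal genes gave 5.54% higher and 16.8% lower in this contrast, and the 4 of 21 were near that share. Against the Meig1-high barcodes 5 of 21 were higher and 3 lower, where all genes gave 17.9% and 15.5%. Dmc1, for the recombinase of meiosis, was at 275, 375 and 103 CPM, and Tex15, needed for the repair of breaks, at 238, 827 and 76.7 CPM. Rpa1, for the large subunit of the single-strand binding complex, was at 15.7 CPM, 3.06 times lower than in the Zfy-low, Meig1-low barcodes (48.2 CPM) and 2.08 times lower than in the Meig1-high barcodes (32.8 CPM). With 3000 to 10000 UMIs on both sides the Rpa1 ratio to the Meig1-high barcodes was 0.893, against 0.481 over all depths. Swi5, for a partner of the recombinases, was at 1039.7, 627 and 1419 CPM. Of 14 genes of the synaptonemal complex and cohesin, 0 were at least 2-fold higher and 1 was lower than in the Zfy-low, Meig1-low barcodes. That was Rec8, for the meiotic cohesin subunit, with 8 UMIs in the set (2.21, 16.7 and 5.30 CPM). Sycp3, for the axis core, was at 3351, 1707 and 2716 CPM (1.96-fold and 1.23-fold). 4930447C04Rik, which is Six6os1 of the central element, was at 965, 672 and 268 CPM. Of 14 crossover factors, 1 was higher and 3 were lower than in the Zfy-low, Meig1-low barcodes, near the same shares of all genes. Exo1, for a nuclease, was at 16.3, 60.2 and 10.5 CPM, Rnf212b at 99.7, 56.8 and 35.5 CPM, and Cntd1 at 133, 61.5 and 301 CPM. Of 9 genes for telomere attachment, 0 were higher and 1, Majin, was lower than in the Zfy-low, Meig1-low barcodes.

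The list of DNA damage signalling and the sex body held 21 measured genes, of which 0 were at least 2-fold higher and 4 lower than in the Zfy-low, Meig1-low barcodes (median log2 ratio 0.14). The latter count is near the 16.8% of all autosomal genes. Those lower were Atm, Chek1, Chek2 and Etaa1. Atm, for the kinase that answers the programmed breaks, was at 28.7, 133 and 11.3 CPM, 4.61 times lower than in the Zfy-low, Meig1-low barcodes, where Atr was higher. H2afy, for the histone variant macroH2A1 found on the sex body, was at 107, 75.8 and 424 CPM, lower than in the Meig1-high barcodes. Against those barcodes 4 genes of the list were at least 2-fold higher and 1 was lower. All autosomal genes gave 17.9% higher and 15.5% lower in that contrast, and the 4 of 21 were near that share.

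Of 17 transcription regulators of meiosis, 4 were at least 2-fold higher than in the Zfy-low, Meig1-low barcodes, namely Brdt, Kctd19, Sox30 and Rfx2, and 1, Stra8, was lower (median log2 ratio 0.53), against 5.54% and 16.8% of all autosomal genes. Against the Meig1-high barcodes 3 were higher and 3 lower, against 17.9% and 15.5% of all. Kctd19, a partner of the pachytene regulator ZFP541, was at 221, 63.1 and 254 CPM, a ratio of 3.50 against the Zfy-low, Meig1-low barcodes and of 0.872 against the Meig1-high barcodes. Sox30 was at 104, 47.1 and 147 CPM and Rfx2, for a regulator of cilium genes, at 58.3, 26.5 and 105 CPM. Stra8 was at 17.4 CPM, against 239.7 CPM in the Zfy-low, Meig1-low barcodes, 13.8 times lower, and 9.79 CPM in the Meig1-high barcodes. It was counted in 49 members (8.40%), and in 7.91% of Leydig barcodes, which had a median of 8792 UMIs against 5355 in the set. Thinned to 3000 UMIs, the shares were 5.22% of members, 2.0% of Leydig barcodes and 4.21% of macrophage barcodes. Tcfl5, another pachytene regulator, was at 202, 118 and 482 CPM.

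Products of later pachytene were low. Of 21 such genes measured against the Meig1-high barcodes, 20 were at least 2-fold lower in the Zfy-high set and 0 were higher (median log2 ratio -3.50), against 15.5% and 17.9% of all autosomal genes, with the low Meig1 of the gate acting on the same contrast. Against the Zfy-low, Meig1-low barcodes 4 of 18 were higher, namely Hspa2, Pdha2, Tktl2 and Rpl10l, and 2 were lower, Spag6l and Spag17. All autosomal genes gave 5.54% higher and 16.8% lower in this contrast. Ldhc, for the germ-cell lactate dehydrogenase, was at 140.4, 129 and 2156 CPM. Its level was 47.1 CPM in Leydig barcodes and 81.7 CPM in macrophage barcodes, so part of the 140.4 CPM may be free RNA, which was not tested. Hspa2, for a testis heat shock protein, was at 432, 213 and 1499.5 CPM, and Pdha2, for a retrocopy of the X-linked pyruvate dehydrogenase subunit, at 116, 56.9 and 569 CPM. Spink2, for a protease inhibitor of the acrosome, was at 4.97, 9.72 and 256 CPM, 51.4 times lower than in the Meig1-high barcodes. The 7 other genes with the lowest ratios against the other Sycp1-high barcodes, Cmtm2a, 1700108J01Rik, Prok2, Lin7a, 1700009C05Rik, 4930414F18Rik and 4930430A15Rik, each had between 1 and 16 UMIs in the set. Of these, Cmtm2a was at 3.04 CPM against 209.8 CPM in the Meig1-high barcodes, 69.0 times lower. These folds were smaller with 3000 to 10000 UMIs on both sides. The ratios to the Meig1-high barcodes were then 0.176 for Cmtm2a and 0.0805 for Spink2, against 0.0145 and 0.0194 over all depths.

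In the piRNA pathway and germ granule, 0 of 19 genes were at least 2-fold higher and 10 lower than in the Meig1-high barcodes (median log2 ratio -1.05), against 17.9% and 15.5% of all autosomal genes. Against the Zfy-low, Meig1-low barcodes 2 were higher, Piwil2 and Tdrd5, and 0 lower, against 5.54% and 16.8% of all. Piwil1, for the PIWI protein of pachytene, was at 22.7, 23.6 and 474 CPM, 20.9 times lower than in the Meig1-high barcodes. With 3000 to 10000 UMIs on both sides that ratio was 0.101, against 0.0478 over all depths. Piwil2 was at 282, 128 and 362 CPM and the helicase gene Mov10l1 at 708, 375 and 623 CPM. Of 17 genes of germ-cell RNA processing, 2 were higher and 1 was lower than in the Zfy-low, Meig1-low barcodes. The higher were Rexo5 and Pabpc1, at 1618 CPM against 724 CPM, and the lower was Elavl2, an RNA-binding protein gene, at 53.3 CPM against 209.5 CPM and 9.52 CPM in the Meig1-high barcodes. Dazl, for a translation regulator of germ cells, was at 2326, 1651 and 1605 CPM. Its ratio to the Meig1-high barcodes was 1.45 over all depths and 0.896 with 3000 to 10000 UMIs on both sides. Ybx3, for an RNA-packaging protein, was at 101, 85.2 and 1126 CPM.

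**Figure D4:**
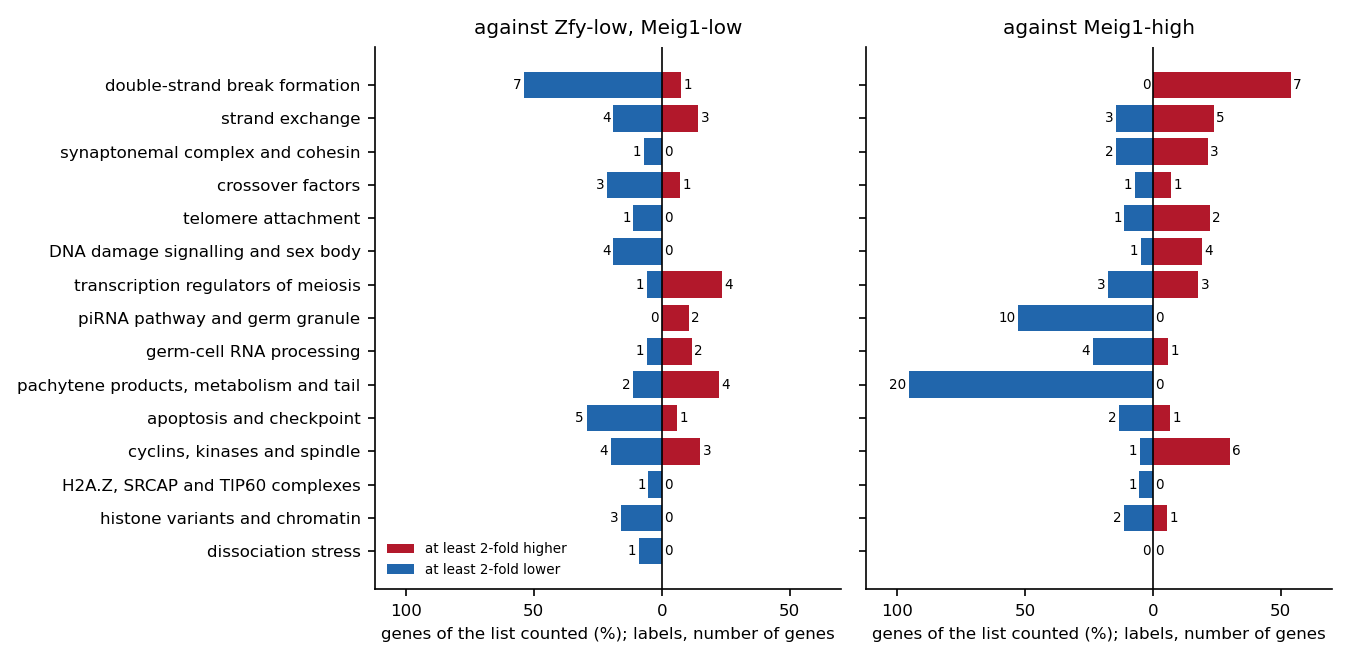
Percentage of the genes of each of 15 lists that were at least 2-fold higher (red, right) or lower (blue, left) in the Zfy-high set than in the Zfy-low, Meig1-low barcodes (left panel) and the Meig1-high barcodes (right panel), with the number of genes at each bar. Pachytene products have 20 lower on the right, and genes for double-strand break formation have 7 lower on the left and 7 higher on the right.

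Of 20 cyclins, kinases and spindle genes, 6 were at least 2-fold higher and 1 lower than in the Meig1-high barcodes (17.9% and 15.5% of all autosomal genes). Against the Zfy-low, Meig1-low barcodes (5.54% and 16.8% of all) 3 were higher, namely Cdk1, Ccnb2 and Cdc20, and 4 lower, namely Ccna2, Ccnd2, Cdc25a and Aurkb. Mki67, the proliferation marker, was at 342, 354 and 52.6 CPM. Of 17 apoptosis and checkpoint genes, 1 was higher and 5 were lower than in the Zfy-low, Meig1-low barcodes, and of 15 measured against the Meig1-high barcodes 1 was higher and 2 were lower. Mdm2, the negative regulator of p53, was at 164, 105 and 238 CPM. Of 19 genes of H2A.Z and its deposition and removal machinery, 0 were higher and 1 was lower than in the Zfy-low, Meig1-low barcodes. That was Anp32e, for a chaperone that takes H2A.Z off chromatin, at 27.9, 79.7 and 18.1 CPM. The H2A.Z genes themselves were at 1422, 1199 and 2415 CPM for H2afz and 841, 534 and 651 CPM for H2afv. Mbtd1, for a subunit of the TIP60 complex, was at 434, 219.7 and 402 CPM. Of 19 genes for histone variants and chromatin, 0 were higher and 3 were lower than in the Zfy-low, Meig1-low barcodes, Dnmt1, Hist1h2aa and H1fx. Dnmt1, for the maintenance DNA methyltransferase, was at 26.0, 123 and 22.7 CPM. Of 11 dissociation stress genes, 0 were higher and 1, Hspa1b with 10 UMIs, was lower than in the Zfy-low, Meig1-low barcodes.

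To place the set among all 3514 Sycp1-high barcodes, these were divided by Meig1, which Zfy1 and Zfy2 do not enter. The level of Zfy1 and Zfy2 was 214 CPM in the 1371 barcodes without Meig1, 389 CPM in the 1008 above 0 and under 400 CPM of Meig1, and 498 CPM in the 582 from 400 to under 1200 CPM. It was 125 CPM in the 356 from 1200 to under 3000 CPM and 39.5 CPM (33.1 to 46.8) in the 197 from 3000 CPM up. Zfy-high barcodes made up 12.3%, 24.9% and 28.2% of the first 3 bands. The X-linked share was 2.51%, 2.51%, 1.80%, 0.978% and 0.473% over the 5 bands. Brdt peaked in the same band as Zfy1 and Zfy2, at 656 CPM, but was still at 421 CPM in the last. Stra8 was lower in each band than in the one before, from 249.9 to 6.49 CPM. The bands differ in depth, with median UMIs of 4282 in the first and 13425 in the last, and a barcode without Meig1 is in part a shallow one.

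**Figure D5:**
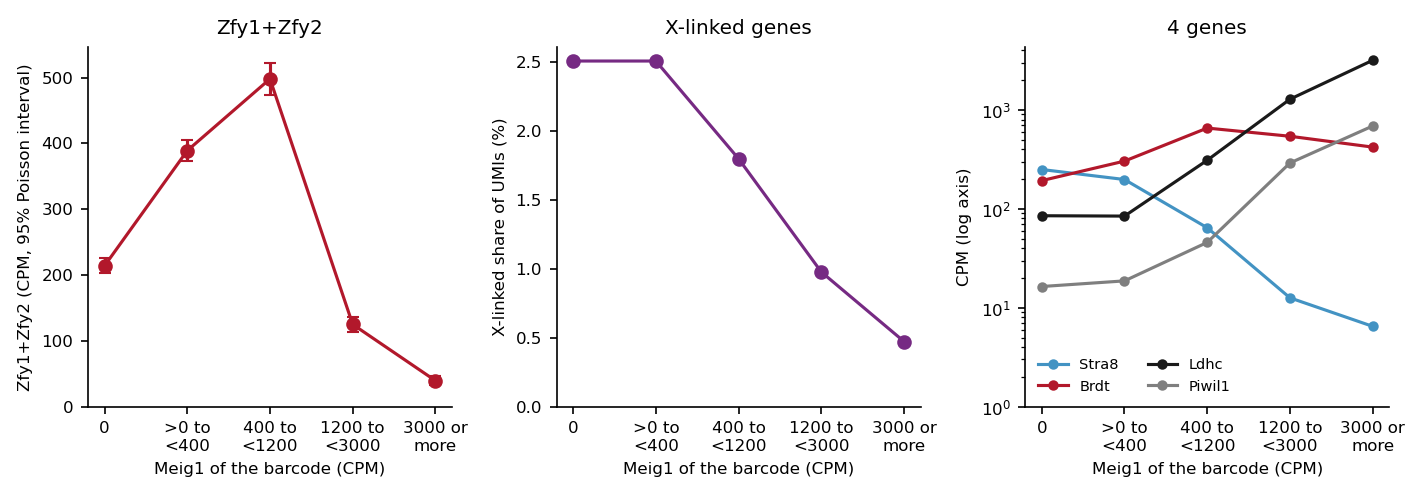
All 3514 Sycp1-high barcodes divided by their Meig1 level (x axis, CPM), with the level of Zfy1 and Zfy2 with 95% Poisson intervals (left), the X-linked share of UMIs (middle) and the levels of Stra8, Brdt, Ldhc and Piwil1 on a log axis (right), all over summed UMIs. Zfy1 and Zfy2 are highest at 498 CPM in the middle band, where the X-linked share is 1.80% and Ldhc is at 310.1 CPM, against 3176 CPM in the last band.

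Members differed among themselves along the same lines. The 368 with an X-linked share of 2.5% or more had 1321 CPM of Zfy1 and Zfy2, 1133 CPM of Scml2 and 752 CPM of Usp26. The 184 from 1.5% to under 2.5% had 1216, 738 and 390.2 CPM, and the 31 under 1.5% had 947, 363 and 132 CPM. The 2 X-linked genes are part of the share that orders these groups. Autosomal genes are not, and Meig1, although limited by the gate, was at 246, 330.3 and 716 CPM, Hspa2 at 348, 488 and 869 CPM, and Kctd19 at 198, 234 and 353 CPM. Brdt was at 706, 749.5 and 879 CPM. The members without Meig1 UMIs, 168 in number, had 150.3 CPM of Kctd19 and 2859.8 CPM of Sycp3, and the 164 with 400 CPM or more had 291 and 3959 CPM. The level of Zfy1 and Zfy2 was 1212 CPM in the former and 1278 CPM in the latter.

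The Zfy-low, Meig1-low barcodes were a mixture, here divided by markers and by X-linked share. No order in time was measured. One part was the 1282 with 500 CPM or more of the markers before or at the start of prophase and at least 1% X-linked UMIs. In it Brdt was at 106 CPM, Kctd19 at 17.5 CPM and Stra8 at 401 CPM. In the 987 with fewer such markers, Brdt was at 269.5 CPM, Kctd19 at 75.6 CPM and Zfy1 at 65.9 CPM, and the set's ratios to them were 2.72 (2.54 to 2.91) for Brdt, 2.92 (2.58 to 3.32) for Kctd19, 2.37 (2.21 to 2.53) for Rexo5 and 4.18 (3.80 to 4.62) for A830018L16Rik. Some genes named above were within 2-fold of these 987 barcodes, with ratios of 1.88 for Rad51ap2, 1.59 for Meiob, 1.87 for Hormad1, 1.92 for Scml2 and 1.88 for Thap8. Others were closer to them, at 1.69 for Usp26, 1.19 for Fmr1, 1.13 for Atr and 1.09 for Rnf212b. Of genes named as lower, Aurkb (0.779) and Dnmt1 (0.519) came within 2-fold. Stra8 (0.393), Prdm9 (0.408), Atm (0.332) and Mei1 (0.215) did not. The 109 with an X-linked share under 1% were within 2-fold of the set in some autosomal genes and not in others. Rexo5 was at 754 CPM in them and 668 CPM in the set (ratio 0.886) and Rad51ap2 at 661 and 530.2 CPM (0.802). These given markers thus did not set the members apart from the 109. Brdt was at 829.6 and 733 CPM (0.883) and Resf1 at 311 and 254 CPM (0.817), while Piwil1 was at 67.7 and 22.7 CPM (0.334) and Prdm9 at 1.04 CPM (1 UMI) and 19.1 CPM. Usp9y was at 41.7 and 259 CPM (6.22-fold higher in the set, 4.53 to 8.76), Scml2 at 158 and 954 CPM (6.02-fold, 5.12 to 7.13) and Fmr1 at 126 and 682 CPM (5.41-fold, 4.51 to 6.55). Zfy2, a gate gene, was at 45.9 and 681 CPM. Zfy1, the other gate gene, was at 54.2 and 578 CPM. Gm50299, on chromosome 19, was at 3.13 CPM (3 UMIs) in them against 126 CPM, a ratio of 40.2 (13.7 to 196), unlike A830018L16Rik at 315 and 472 CPM. Srgap1 was at 141 and 161 CPM (1.14), Tafa1 at 431 and 225 CPM (0.521) and Thap8 at 12.5 and 32.9 CPM (2.63). The X-linked share that chose these 109 barcodes fixes the direction for X-linked genes, but not for Usp9y, Gm50299 or the other autosomal genes.

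Free RNA, other cell types and depth were measured beside these results. Members had a median of 5355 UMIs (1001 to 31338) and 2658 genes, against 4423 UMIs in the Zfy-low, Meig1-low and 10804 in the Meig1-high barcodes. Thinned to 3000 UMIs, with 27 shallower members left out, Zfy1 was counted in 82.9% of members, 9.24% of Zfy-low, Meig1-low and 8.23% of Meig1-high barcodes (93.7%, 14.5% and 19.7% before thinning). In 974 Leydig barcodes Zfy1 was counted in 2.77%, at 4.06 CPM, and Zfy2 was counted in 2.36% of 467 macrophage barcodes, which had a median of 3207 UMIs. Summed Leydig markers were at 355 CPM in the set, 423 CPM in the Zfy-low, Meig1-low and 207 CPM in the Meig1-high barcodes. Those of Sertoli cells were at 1555, 1659 and 938 CPM, of macrophages at 99.7, 175 and 53.2 CPM, of peritubular myoid cells at 98.9, 193 and 99.8 CPM, of interstitial stroma at 66.0, 82.2 and 33.7 CPM, of endothelium at 6.35, 8.56 and 7.34 CPM and of spermatids at 22.9, 10.1 and 45.1 CPM. Mitochondrial UMIs were 5.60%, 6.26% and 3.51% of the total. A median member had 5.81%, and 35 further barcodes met the gate but were above the limit of 10%. Doublet calls covered 12 members, and 5 members had a barcode sequence that another library also listed. The part of these differences in the results was not tested.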

How the data were processed

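Single cells of mouse testis were analysed from 1 of 4 libraries. The values the authors deposited are raw UMI counts, whole numbers that are not normalised. Cell Ranger 7.1.0 is named in the file headers, and STAR and the build mm10 stand in the submitters' processing notes. The sources used here do not state how cells were called or whether intronic or ambiguous reads were counted. The remaining 3 libraries were not analysed here. Chromosomes and coordinates came from a GENCODE annotation of the same build, matched by gene identifier.

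Barcodes were filtered and chosen as stated in the report. The members, lists, markers and comparisons were chosen with earlier results of these data known. Counts were summed over the barcodes of a set and divided by all its UMIs, giving CPM with an exact Poisson interval at the 95% level. For ratios the interval was the exact conditional binomial, and for shares Clopper-Pearson. In a ratio, 3 counts stood in for 0. Genes needed 20 UMIs over both sets, and a gene was counted at a ratio of 2 or more. Intervals cover counting error only, and the precision is limited by the 3619202 UMIs of the set. A single library allows neither a test nor a p-value.

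Named genes were the gate genes, the given markers, Znhit1, H2afz and H2afv, in each of 15 lists the member with the largest ratio up and down of at least 1.5-fold and the highest CPM against the other Sycp1-high barcodes, the 12 autosomal genes of highest lower bound and the 8 of lowest upper bound with at least 100 UMIs, 3 X-linked and 3 Y-linked genes of highest CPM, and the 6 most like Zfy1 and Zfy2. Other genes were chosen after their values were seen, and the text leaves out some that the rule names. Some genes are not reported here. Some list symbols are not in the features used and were left out. Scrublet in scanpy 1.11.5 called 265 of 8121 barcodes doublets (3.26%), which were kept in the main values. Leydig and macrophage barcodes, the reference for free RNA, had at least 2000 CPM of 3 markers summed and were not Sycp1-high. Free RNA was not subtracted. The ratio step was tested on simulated data. Alternatives were a minimum of 5000 UMIs, other limits of Zfy1 and Zfy2, Meig1 or mitochondrial share, doublets left out, equal weight per barcode, thinning to 3000 UMIs, other gene filters, and 3 comparators added after seeing the data. Computation used scipy 1.17.1 and pandas 2.3.3 under Python 3.11.15, and matplotlib 3.10.9 drew the figures.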

Additional observations from a re-analysis of the deposited data

How the results depend on the processing

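No paired analysis was possible because each group had 1 library and only 1 was analysed. The X-linked share over the Meig1-high barcodes, 3.43 as reported, was 3.51 with at least 5000 UMIs, 3.59 at 1000 CPM of Zfy1 and Zfy2, 2.90 at a Meig1 limit of 600 CPM, 3.52 without doublets, 3.51 at 5% mitochondrial UMIs, 2.79 with equal weight per barcode, 3.24 after thinning and 3.71 at 3000 to 10000 UMIs. Over the Zfy-low, Meig1-low barcodes (1.11) these were 1.15, 1.15 and 1.09 for the first 3, then 1.20 at 5% mitochondrial UMIs, 1.09 with equal weight and 1.10 thinned. The ratio was 1.21 with few markers before or at the start of prophase. Over the other Sycp1-high barcodes (1.47) they were 1.70, 1.5, 1.52, 1.49 without doublets, 2.13 at 5%, 1.23 and 1.25. The share was above 1 in all of these. Members numbered 352 with at least 5000 UMIs, 345 at 1000 CPM of Zfy1 and Zfy2 and 170 at 5% mitochondrial UMIs.

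Autosomal counts followed the gene filter by construction. With 100 UMIs per gene, 1221 were higher and 1181 lower than in the Meig1-high barcodes, 439 higher and 1274 lower than in the Zfy-low, Meig1-low barcodes, and 198 higher and 1400 lower than in the other Sycp1-high barcodes. With 1 UMI, 6535, 5076 and 5502 passed as higher in the same order. Since 3 counts stood in for 0, these include genes never counted in the set. Tnp2, with 0 UMIs in the set and 3 in the other Sycp1-high barcodes, had a ratio of 5.61. Fewer were lower than in the Meig1-high barcodes after thinning (1109) and at 3000 to 10000 UMIs (852). Against the 987 Zfy-low barcodes with few markers before or at the start of prophase, 442 were higher and 1388 lower. At 5% mitochondrial UMIs 400 were higher than in the Zfy-low, Meig1-low barcodes and 745 than in the other Sycp1-high barcodes, and the cause was not tested.

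Of 1846 values of 71 named genes, 1236 stayed within the reported interval, 605 moved outside it and 5 reversed. Only a reported ratio of at least 2-fold could count as reversed. Smaller ratios that crossed 1 are in the other counts. Rad51ap2 over the Meig1-high barcodes, for example, went from 1.48 to 0.892 at 3000 to 10000 UMIs. Of the 5 reversed, 1700009C05Rik over the Zfy-low, Meig1-low barcodes was 1.05 after thinning. Over the same barcodes 1700108J01Rik, with 1 UMI in the set, was 1.45 at 5% mitochondrial UMIs and 1.90 after thinning. Gm34544 was 0.439 over them, and 0.897 over the other Sycp1-high barcodes, at 5%. Tafa1 over the Meig1-high barcodes was 1.54 after thinning and 1.15 at the Meig1 limit of 600 CPM. Depth limits single barcodes, where 1 UMI at the median depth is a large part of the gate.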

Other observations

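Several genes with the highest ratios to the other Sycp1-high barcodes were long non-coding or antisense RNAs of low level. Gm14221, on chromosome 2, was at 37.6 CPM in the Zfy-high set, 13.0 CPM in the Zfy-low, Meig1-low barcodes, with 25 UMIs in the Meig1-high barcodes. Gm16272, annotated as antisense, was at 26.2, 7.79 and 2.18 CPM, and Gm34544, with 55 UMIs in the set, was at 15.2, 4.55 and 1.09 CPM. Gm10684 was at 23.8 and 8.33 CPM, with 4 UMIs in the Meig1-high barcodes. Reads of an antisense gene and of the gene it overlaps could be mixed, and the counting by strand is not stated. The protein-coding genes Prkcd, for a protein kinase C, and Bend7 had the same order, at 28.7, 10.3 and 4.21 CPM and at 16.3, 4.47 and 3.13 CPM.

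Other genes were low in the Zfy-low, Meig1-low and high in the Meig1-high barcodes, with the Zfy-high set between. They were picked after their values were seen. Cks2, for a subunit of cyclin-dependent kinases, was at 643 CPM in the former, 1474 CPM in the Zfy-high set and 2954 CPM in the latter. Cox7b2, for a testis form of a cytochrome c oxidase subunit, was at 209, 456 and 951 CPM in that order, and Acyp1, for an acylphosphatase, at 87.5, 182 and 861 CPM. Among apoptosis genes Bid, for a pro-apoptotic protein, was at 13.7, 2.49 and 2.99 CPM, with 9 UMIs in the set.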
